A study of Homo sapiens with 9 samples.

Results

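MYH15, SIRPB2, FMNL3, NPTX1, CSF3R and TGM1 are 6 human genes from different families, chosen among 60675 rows of a count table because both hairpins against CBX5 moved each of them far in the same direction. RNA was measured in HCC827, an established human lung cancer cell line. They carried, stably expressed, either a control hairpin (NS, called control here), the CBX5 hairpin G1 (shRNA1) or the CBX5 hairpin G7 (shRNA2), with 3 libraries per group and 9 in all. All groups grew in DMEM with fetal bovine serum, penicillin and streptomycin, and every group carries a stable hairpin. The labels do not state whether a group is 1 clone or a pool, or whether its replicates came from separate transductions, so p-values measure the spread between these libraries.

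CBX5 encodes HP1 alpha, a protein of heterochromatin that binds methylated histone H3 and helps keep genes silent. The 6 genes are known mainly from other tissues. MYH15 encodes a sarcomeric-type heavy chain of muscle myosin. NPTX1 encodes neuronal pentraxin 1, a secreted protein that helps cluster glutamate receptors at synapses. SIRPB2 belongs to the signal regulatory proteins, membrane proteins with immunoglobulin domains that are best known in myeloid cells. FMNL3 encodes a formin, a protein that nucleates and elongates straight actin filaments. CSF3R encodes the receptor for granulocyte colony-stimulating factor (G-CSF), which drives the production of neutrophils and signals through JAK kinases and STAT factors. TGM1 encodes transglutaminase 1, which cross-links proteins into the cornified envelope of skin cells.

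The genes were chosen by their measured changes with each hairpin against control, so these values describe the choice and carry no test. In its terms 4 genes were higher with both hairpins (MYH15, NPTX1, SIRPB2 and FMNL3) and 2 were lower (CSF3R and TGM1). All 6 were among the 13264 genes that passed the filter on low counts. The difference between G1 and G7 was no part of the rule, although it comes from the same libraries, and it is the comparison tested below.

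The RefSeq table of GRCh38.p14 gave the sequence before the transcription start for 4 of the 6 genes, in 5 windows of 250 bases. Of these, 3 are shown, from the genes with the largest rise and the largest fall with G1 and from 1 gene whose G1 and G7 libraries overlapped, and they lie at both ends of GC content. Capitals mark matches, on either strand, to 5 motifs, which were TATAAA for the box of that name, CCAAT for the nuclear factor Y element, GGGCGG for the GC box, CACGTG for the E-box and TGANTCA for the AP-1 element. A match describes letters and not a binding site, and no matches overlapped in the windows shown.
MYH15, minus strand, chr3:108510597-108510846: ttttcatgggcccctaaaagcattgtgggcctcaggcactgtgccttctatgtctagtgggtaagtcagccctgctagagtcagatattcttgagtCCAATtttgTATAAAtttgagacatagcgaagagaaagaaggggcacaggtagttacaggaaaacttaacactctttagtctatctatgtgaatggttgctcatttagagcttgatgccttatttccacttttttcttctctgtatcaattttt
CSF3R, minus strand, chr1:36483315-36483564: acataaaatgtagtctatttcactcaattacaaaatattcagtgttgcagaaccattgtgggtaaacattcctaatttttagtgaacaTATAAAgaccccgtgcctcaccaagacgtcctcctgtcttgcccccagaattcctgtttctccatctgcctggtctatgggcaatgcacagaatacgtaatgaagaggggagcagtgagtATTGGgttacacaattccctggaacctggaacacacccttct
FMNL3, minus strand, chr12:49707406-49707655: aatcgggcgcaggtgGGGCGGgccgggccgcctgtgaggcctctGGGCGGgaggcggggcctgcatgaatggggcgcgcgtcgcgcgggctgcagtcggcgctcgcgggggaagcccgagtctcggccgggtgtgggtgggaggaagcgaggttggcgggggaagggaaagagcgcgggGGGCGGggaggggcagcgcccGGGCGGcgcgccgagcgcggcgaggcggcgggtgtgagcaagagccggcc

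The MYH15 window had a GC content of 40.0% and 1 CpG dinucleotide, and 6.06% of 35116 RefSeq promoter windows of that length had fewer CpGs. The CSF3R window had 43.2% GC and 3 CpGs, with 22.9% of windows lower in CpG. Another RefSeq start of CSF3R lies further downstream, and its window had 64.4% GC, 8 CpGs and no match to any of the 5 motifs. FMNL3 stood at the other end with 79.2% GC and 37 CpGs, more than 96.0% of windows. SIRPB2 lay between them at 56.4% GC and 7 CpGs, and its window matched no motif. The median window had 58.0% GC and 11 CpGs. MYH15 and CSF3R each held 1 TATAAA, which 10.7% of all windows hold, and 1 CCAAT, which 32.0% hold. In MYH15 these began 145 and 154 bases before the start, and in CSF3R 162 and 42 bases before it, the CCAAT there read on the other strand. FMNL3 held 4 GC boxes, and 42.6% of windows hold at least 1. CACGTG, in 6.34% of windows, and TGANTCA, in 6.57%, were in none of the 5. The printed MYH15 window follows the RefSeq start at 108510596, which lies inside the GENCODE 29 gene, whose first base is 108529322.

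Library totals ran from 12701561 to 22372353 counts, and mitochondrially encoded genes took 13.4% to 19.8% of them. CBX5 had 361 to 377 CPM (counts per 1000000 counts of the TMM-scaled library) in control libraries, 142 to 143 with G1 and 201 to 204 with G7, a log2 fold change of -1.38 ± 0.039 (SE) and -0.86 ± 0.038. Replicate 3 of G7 stood apart from the other G7 libraries, since its chi-square over degrees of freedom was 22.6 and 17.9 against replicates 1 and 2, and these had 1.46 between them. Its mitochondrial share was the highest of all, at 19.8%, where replicates 1 and 2 of G7 had 14.4% and 14.6%. Control replicate 2 (17.7%) and G1 replicate 3 (16.6%) were the highest of their groups. What set G7 replicate 3 apart was not tested. Over all genes, 59.1% of those tested were called with G1 against control, 22.7% with G7 against control and 44.9% between G1 and G7. Calls were made with edgeR's quasi-likelihood test where the Benjamini-Hochberg adjusted p lay under 0.05. Epithelial markers were high in all libraries, EPCAM at 297 CPM and KRT8 at 4106 CPM in the mean of controls, whereas the lung lineage markers NKX2-1 and NAPSA had 0 counts in all 9 and SFTPB had 1 to 15. In bulk RNA, fewer cells that express a gene and less RNA per cell cannot be told apart.

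All 6 genes were expressed at low levels. Their counts ran from 4 to 196 per library. Per kilobase of merged exon, the control mean was highest for TGM1, at 1.11 CPM, followed by CSF3R at 0.516, SIRPB2 at 0.388, NPTX1 at 0.230, MYH15 at 0.199 and FMNL3 at 0.137. The control libraries of NPTX1 (0.174 to 0.266) and MYH15 (0.179 to 0.232) overlapped on that scale, so the order of these neighbours is not resolved, and the others did not overlap. Among 11734 tested protein-coding genes, 2.44% lay below FMNL3 and 19.4% below TGM1 in control cells. With G1 the order per kilobase was MYH15 (1.36), NPTX1 (1.35), SIRPB2 (0.886), TGM1 (0.519), FMNL3 (0.345) and CSF3R (0.0447).

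Small counts limit the precision. For a mean of 23 counts, as for MYH15 in controls, counting alone gives a coefficient of variation of 20.9%, and the observed one was 14.5%. In 10 of the 18 combinations of gene and group the replicates varied by less than counting alone would give, and the highest ratio was 1.74, for SIRPB2 with G1. A count of 0 allows up to 3 counts, which is 0.139 to 0.227 CPM in these libraries, for counting error only. CSF3R with G1, the lowest value of the set, lay above that limit in all 3 libraries.

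**Figure D1:**
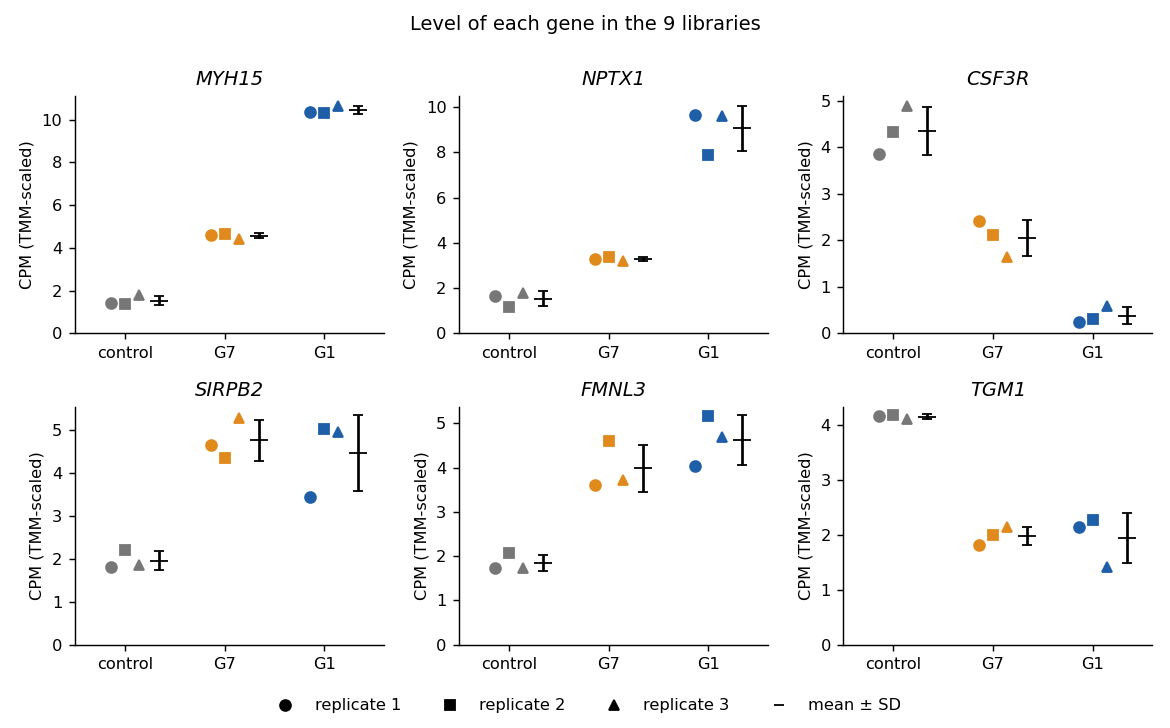
Level of each gene in CPM (linear axis from 0) in control, G7 and G1 libraries, with a marker per replicate and the mean ± SD of 3 libraries beside them. MYH15, NPTX1 and CSF3R form 3 separate steps, while G7 and G1 libraries overlap for SIRPB2, FMNL3 and TGM1.

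MYH15 (ENSG00000144821, GRCh38 chromosome 3, 108380369 to 108529322, minus strand, 43 merged exons) rose in steps from control through G7 to G1. Control libraries 1 to 3 had 1.44, 1.37 and 1.79 CPM, G7 libraries 4.59, 4.66 and 4.43 CPM, and G1 libraries 10.4, 10.3 and 10.7 CPM. No 2 of the groups overlapped. The means were 1.53 ± 0.222, 4.56 ± 0.118 and 10.5 ± 0.176 CPM (SD, n = 3 each). Against control MYH15 had a log2 fold change of 2.75 ± 0.138 (SE) with G1, a 6.73-fold rise, and 1.55 ± 0.158 with G7, a 2.93-fold rise. Between the hairpins MYH15 differed by 1.20 on the log2 scale (95% interval 0.98 to 1.42, edgeR adjusted p = 3.90e-08), higher in 3 of 3 G1 libraries.

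NPTX1 (ENSG00000171246, chromosome 17, 80467148 to 80477843, minus strand, 6 merged exons) followed the same steps. Control libraries had 1.66, 1.17 and 1.79 CPM, G7 libraries 3.29, 3.35 and 3.21 CPM, and G1 libraries 9.66, 7.90 and 9.63 CPM. Again no groups overlapped, and the 3 G7 libraries lay closest together. Fitted log2 changes were 2.54 ± 0.162 (SE) with G1, or 5.81-fold, and 1.08 ± 0.192 with G7, or 2.12-fold. The difference between the hairpins was 1.46 on the log2 scale (95% interval 1.19 to 1.73, edgeR adjusted p = 5.41e-08). In G1 cells NPTX1 and MYH15 stood at nearly the same level per kilobase, at 1.35 and 1.36 CPM.

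CSF3R (ENSG00000119535, chromosome 1, 36466043 to 36483278, minus strand, 15 merged exons) fell in steps. Control libraries had 3.85, 4.33 and 4.88 CPM, G7 libraries 2.41, 2.11 and 1.63 CPM, and G1 libraries 0.237, 0.316 and 0.578 CPM. The G1 values rest on 4, 6 and 9 counts, against 51 to 82 counts in control and 34 to 52 with G7. All 3 groups were separate. CSF3R changed by a log2 value of -3.54 ± 0.271 (SE) with G1, which is 11.7-fold lower, and -1.10 ± 0.182 with G7, which is 2.14-fold lower. G1 lay below G7 by a log2 difference of -2.45 (95% interval -3.09 to -1.80, edgeR adjusted p = 3.85e-06), a 5.45-fold difference and the widest interval of the 6. The size against control moved with single libraries, to -3.31 without G1 replicate 1 and -3.94 without G1 replicate 3.

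SIRPB2 (ENSG00000196209, chromosome 20, 1470741 to 1491587, minus strand, 10 merged exons) was higher with both hairpins, and the hairpins did not differ past the test. Control libraries had 1.81, 2.20 and 1.84 CPM, G7 libraries 4.63, 4.35 and 5.26 CPM, and G1 libraries 3.44, 5.01 and 4.94 CPM. Both hairpin groups lay above all controls and overlapped each other, with G1 replicate 1 the lowest of the 6. With G1 the log2 fold change was 1.19 ± 0.188 (SE), or 2.29-fold, and with G7 1.29 ± 0.182, or 2.44-fold. The difference between the hairpins, -0.10 on the log2 scale, did not pass the test (edgeR adjusted p = 0.626), with a 95% interval from -0.41 to 0.21. That interval allows a G1 level from 0.755 to 1.16 times that of G7.

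The counts of SIRPB2 are uncertain, because 492 of its exon bases are shared with NSFL1C, a gene of membrane fusion on the same strand that is more abundant. NSFL1C had 101 ± 1.47 CPM in control cells, 139 ± 5.35 with G1 and 121 ± 3.57 with G7 (SD, n = 3). Its log2 changes were rises of 0.47 with G1 and 0.27 with G7, and it was higher with G1 than with G7 by 0.20 (edgeR adjusted p = 0.00113). How reads in the shared bases were assigned is not given in the sources used here, and the part of NSFL1C in the SIRPB2 counts was not tested.

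FMNL3 (ENSG00000161791, chromosome 12, 49636499 to 49708165, minus strand, 29 merged exons) was likewise higher with both hairpins. Control libraries had 1.74, 2.06 and 1.73 CPM, G7 libraries 3.61, 4.59 and 3.73 CPM, and G1 libraries 4.03, 5.16 and 4.68 CPM. The hairpin groups overlapped, although 2 of 3 G1 libraries lay above all G7 libraries. G1 gave a log2 fold change of 1.33 ± 0.177 (SE), or 2.52-fold, and G7 gave 1.09 ± 0.179, or 2.13-fold. The G1 minus G7 difference of 0.24 on the log2 scale did not pass the test (edgeR adjusted p = 0.183). Its 95% interval, from -0.06 to 0.54, allows a G1 level up to 1.45 times that of G7. FMNL3 shares 2643 exon bases with PRPF40B, a splicing-factor gene on the opposite strand. PRPF40B had log2 changes of -0.54 with G1, a call, and -0.07 with G7 (edgeR adjusted p = 0.728). The libraries were strand-specific per the labels' protocols, but the strand setting of the counting is not given in the sources used here.

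TGM1 (ENSG00000092295, chromosome 14, 24249114 to 24264432, minus strand, 16 merged exons) was lower with each hairpin. Control libraries had 4.16, 4.19 and 4.11 CPM, G7 libraries 1.81, 1.99 and 2.14 CPM, and G1 libraries 2.13, 2.27 and 1.41 CPM. Every hairpin library lay below every control, and G1 replicate 3 was the lowest. G1 gave a log2 fold change of -1.08 ± 0.175 (SE), 2.11-fold lower, and G7 gave -1.07 ± 0.170, 2.09-fold lower. The difference between hairpins was -0.01 on the log2 scale (95% interval -0.42 to 0.39, edgeR adjusted p = 0.971), which allows a G1 level from 0.748 to 1.31 times that of G7. Its sign turned in some of the alternatives tried, as given at the end.

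Over the set, 3 of 6 genes differed between the hairpins beside 44.9% of all genes tested, 2 of them (MYH15 and NPTX1) higher with G1 beside 23.3% and 1 (CSF3R) lower beside 21.6%, and 3 of 6 had G1 and G7 libraries that did not overlap, beside 53.6%. That share is near the background. The genes that differed were also those with the largest G1 changes, and all 6 had a G7 change between 1.07 and 1.55 in size on the log2 scale. The G1 minus G7 difference is the G1 change less the G7 change. With G7 changes so alike, the first statement follows from arithmetic and is no separate result. For the rule's own contrasts, all 6 were called with G1 and with G7, beside 59.1% and 22.7% of all genes. Libraries did not overlap with control for 6 of 6, beside 64.1% of all genes with G1 and 35.3% with G7. Nothing is read from those counts, since they chose the genes. Both contrasts also use the same 3 control libraries.

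Without G7 replicate 3, the library that stood apart, the G7 changes against control were 1.58 for MYH15, 1.21 for SIRPB2, 1.14 for FMNL3, 1.10 for NPTX1, -0.94 for CSF3R and -1.13 for TGM1 on the log2 scale. The G1 minus G7 differences were then 1.18 for MYH15, 1.44 for NPTX1 and -2.60 for CSF3R (edgeR adjusted p = 1.31e-08, 1.07e-08 and 1.88e-07), and those of SIRPB2, FMNL3 and TGM1 were -0.01, 0.20 and 0.06, none of them past the test (edgeR adjusted p = 0.964, 0.325 and 0.857). The G7 counts of called relatives and neighbours below moved by at most 1 per list without that library.

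**Figure D2:**
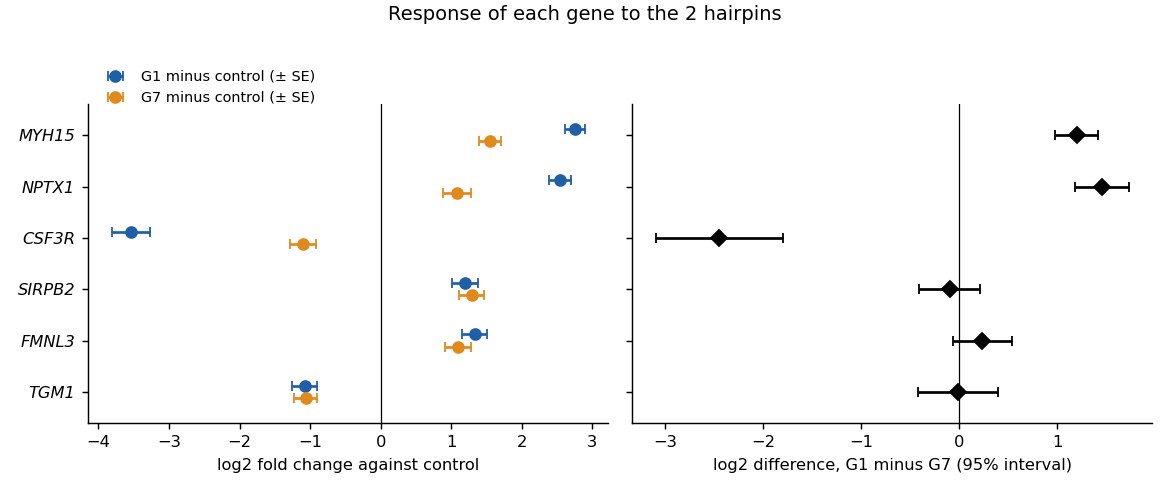
Left, log2 fold change of each gene against control (± SE) with G1 and G7, and right, the G1 minus G7 log2 difference with its 95% interval. The intervals of MYH15, NPTX1 and CSF3R lie away from 0, and those of SIRPB2, FMNL3 and TGM1 span it.

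The set is not complete for its description. The ranks below use the values that chose the genes, so they describe the choice and carry no test. Coding genes with at least 2 CPM on average over the 9 libraries were ranked by the smaller of the G1 and G7 changes. The rises were ranks 2 (MYH15), 3 (SIRPB2), 5 (FMNL3) and 6 (NPTX1) of 4743. These 4 had control means of 1.53, 1.95, 1.84 and 1.54 CPM, under that limit, and passed it through the hairpin groups. TXNIP, a thioredoxin-binding arrestin, took rank 1 and its relative ARRDC4 rank 4, with a log2 change of 1.10 with G7. FAM72D came next at rank 7, at 1.31 and 0.97, followed by DUSP9, an ERK and stress kinase phosphatase, at 1.21 and 0.92. FAM72D and DUSP9 likewise had control means under the limit, at 1.11 and 1.82 CPM. Among 3516 shared falls CSF3R and TGM1 were ranks 1 and 2. HSPA5, the main chaperone of the endoplasmic reticulum, was rank 3 at -1.97 and -0.92, and IDUA, a lysosomal enzyme, rank 4 at -1.35 and -0.91.

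Profiles over the 9 libraries, as log2 CPM centred on the control mean, were compared with 10476 coding genes by the root mean square difference, a description of likeness only. The nearest profile to MYH15 was that of NPTX1, at 0.285 on the log2 scale, and the next was ARRDC4, at 0.361. NPTX1 was nearest to ARRDC4 (0.244) and then to MYBL2 (0.256), a transcription factor of the cell cycle. CSF3R was nearest to HERPUD1 (0.247), which acts in the degradation of endoplasmic reticulum proteins, and to the stress-response gene NUPR1 (0.285). FMNL3 lay closest to ANKRD22 (0.132) and the aldo-keto reductase AKR1B10 (0.133), SIRPB2 to FMNL3 (0.186) and AKR1B10 (0.229), and TGM1 to RARRES1 (0.171) and PAN2 (0.189). Centred on the control mean, the profiles largely reflect the G1 and G7 changes, which chose the genes of the set. Nearness of MYH15 to NPTX1 and of SIRPB2 to FMNL3 thus follows in part from that choice. NPTX1 and FMNL3, with control means of 1.54 and 1.84 CPM, passed the limit of 2 CPM through the hairpin groups. All genes compared share the libraries and their depth, and nearness says nothing of shared control.

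Relatives and partners of each gene were listed by family and pathway. In the myosin heavy chain family, 7 of 14 other genes were tested, and the other 7 had 0 counts in all libraries. With G1, 3 were higher and 3 lower (1 and 3 with upper quartile scaling, 2 and 1 with DESeq2), beside 30.4% higher and 28.7% lower of all genes. With G7 none was called by edgeR (2 higher and 0 lower at an unadjusted p under 0.05, and 1 higher with limma voom). DESeq2 called 0 with G7, but gave no adjusted p for 3 of the 7. MYH9, the main non-muscle heavy chain, went from 1274 ± 54.5 CPM in control to 1642 ± 51.5 with G1 (SD, n = 3), a log2 change of 0.37 (edgeR adjusted p = 1.63e-06). MYH7B, another sarcomeric-type gene, fell by 1.19 with G1 from 0.896 CPM (edgeR adjusted p = 0.00819). The log2 change of MYH9 with G7 was 0.11 and that of MYH7B was -0.20 (edgeR adjusted p = 0.104 and 0.686).

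Among the signal regulatory proteins and their partners, 5 of 8 other genes were tested. SIRPA, the inhibitory member of the family, rose by 0.48 with G1 and by 0.34 with G7, as log2 changes (edgeR adjusted p = 8.70e-06 and 0.00153). PTPN11, the phosphatase SHP2 that SIRPA recruits, rose by 0.43 and 0.23. CD47, the ligand of SIRPA, fell by 0.23 with G7, and its change of -0.11 with G1 did not pass (edgeR adjusted p = 0.0577). TYROBP, the adaptor through which activating family members of myeloid cells signal, had at most 1 count in any library. SIRPB1 and SIRPD had 0 counts. By edgeR, 2 were higher and 0 lower with G1 (1 lower at an unadjusted p under 0.05, 0 with DESeq2 or limma voom), beside 30.4% higher and 28.7% lower of all genes. With G7, 2 were higher and 1 lower, beside 13.1% higher and 9.64% lower of all genes. With upper quartile scaling the G1 count was 2 and 2, and the median log2 change with G1 turned from 0.04 to -0.05.

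Of 19 other formins and formin activators, 17 were tested. With G1, 9 were higher and 2 lower (9 and 1 with DESeq2), beside 30.4% higher and 28.7% lower of all genes. Their median log2 change with G1 was 0.20 beside -0.01 for all genes, and 0.11 beside -0.10 with upper quartile scaling. With G7, 5 were higher and 0 lower by edgeR (0 lower also at an unadjusted p under 0.05, with DESeq2 and with limma voom), beside 13.1% and 9.64% of all genes, with a median of 0.09 beside 0.01. DESeq2 gave no adjusted p with G7 for 1 of the 17. DIAPH3, a formin of the dividing cell cortex, rose from 14.3 ± 0.919 to 41.4 ± 2.08 CPM with G1 and 23.2 ± 1.09 with G7 (SD, n = 3), log2 changes of 1.54 and 0.70. DIAPH1, which acts downstream of RHOA, rose by 0.66 and 0.23, and PFN1, the profilin that delivers actin to formins, by 0.73 and 0.33. FMNL2, the closest relative of FMNL3, fell by 0.33 with G1 and had -0.03 with G7 (edgeR adjusted p = 1.4e-05 and 0.73), and FMNL1 had -0.03 and -0.12, neither called. CDC42, the small GTPase that acts on formin-like proteins, rose by 0.39 with G1 and had 0.08 with G7 (edgeR adjusted p = 0.202).

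Among pentraxins, 5 of 6 other genes had 0 counts in all libraries, NPTX2 among them. NPTXR, the neuronal pentraxin receptor, had 19.3 ± 2.50 CPM in control, 20.98 ± 0.613 with G1 and 25.7 ± 0.537 with G7 (SD, n = 3). It rose by 0.40 with G7 (edgeR adjusted p = 0.00126), and its log2 change of 0.11 with G1 did not pass. Between the hairpins it was lower with G1 by a log2 difference of -0.29 (edgeR adjusted p = 0.00488), where NPTX1 was higher with G1.

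The ligand of CSF3R, CSF3, had at most 1 count in any library. Of 14 genes for that ligand and for other type I cytokine receptors, 9 were tested. By edgeR 0 were higher and 7 lower with G1 (0 higher also at an unadjusted p under 0.05, with DESeq2 and with limma voom), and 1 was higher and 4 lower with G7. Of all genes, 28.7% were lower with G1 and 9.64% with G7. The medians of the receptors were -0.28 and -0.26 on the log2 scale, beside -0.01 and 0.01 for all genes. EPOR, the erythropoietin receptor, went from 10.8 ± 1.27 CPM to 5.92 ± 0.603 with G1 and 7.57 ± 0.711 with G7 (SD, n = 3), log2 changes of -0.86 and -0.50. IL6ST, the shared subunit of IL-6 family receptors, changed by -0.28 and -0.24, and LIFR by -0.21 and -0.42. IL11RA, at 1.91 CPM in control, changed by -1.18 with G1 and had -0.29 with G7 (edgeR adjusted p = 0.00235 and 0.452). IL3RA, at 1.62 CPM in control, changed by -1.37 with G1 and had -0.18 with G7 (edgeR adjusted p = 2.32e-04 and 0.613). LEPR was the receptor higher with G7, at 0.23, and had -0.03 with G1 (edgeR adjusted p = 0.00355 and 0.631). The G1 call of OSMR, at -0.11, ended under 5 of 18 alternatives. Of 15 genes that act downstream of G-CSF, 13 were tested, with 5 higher and 4 lower with G1, and by edgeR 3 higher and 0 lower with G7 (0 lower also at an unadjusted p under 0.05, with DESeq2 and with limma voom). Beside these stand 30.4% and 28.7% of all genes with G1, and 13.1% and 9.64% with G7. SYK, a tyrosine kinase, rose by 0.57 with G1 and 0.18 with G7, and LYN, a kinase of the SRC family, rose by 0.56 with G1 and had 0.12 with G7 (edgeR adjusted p = 0.131). The 4 that were lower with G1 were the transcription factors STAT5A at -0.68 and STAT3 at -0.11, the adaptor GAB2 at -0.32 and the kinase TYK2 at -0.16, and none of them was called with G7. The call of STAT5A ended without control replicate 2 and without G1 replicate 3, that of TYK2 with no filter on low counts and without control replicate 3 or G1 replicate 3, and that of STAT3 under 7 of 18 alternatives, DESeq2 among them. JAK1 had 0.02 and -0.06, neither called.

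TGM2, the widely expressed transglutaminase, was the only other family member tested, of 8. It had 638 ± 19.3 CPM in control, 779 ± 7.32 with G1 and 806 ± 22.8 with G7 (SD, n = 3), and rose by 0.29 and 0.34 on the log2 scale (edgeR adjusted p = 1.04e-05 and 1.44e-05), opposite to TGM1. Of 23 cornified envelope genes, 10 were tested, with 3 higher and 2 lower with G1 (3 and 1 with DESeq2), and 3 higher and 1 lower with G7. The G1 counts lie near the 30.4% and 28.7% of all genes, and those with G7 stand beside 13.1% and 9.64%. ANXA1, an annexin of the cell membrane, rose by 1.23 and 0.43, and S100A10, a member of the S100 family, by 0.65 and 0.24. ABCA12, a lipid transporter of keratinocytes, fell by 0.61 and 0.32. Of the main structural proteins of the envelope, LOR and FLG had 0 counts, and IVL had 6 to 14 counts with no call.

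**Figure D3:**
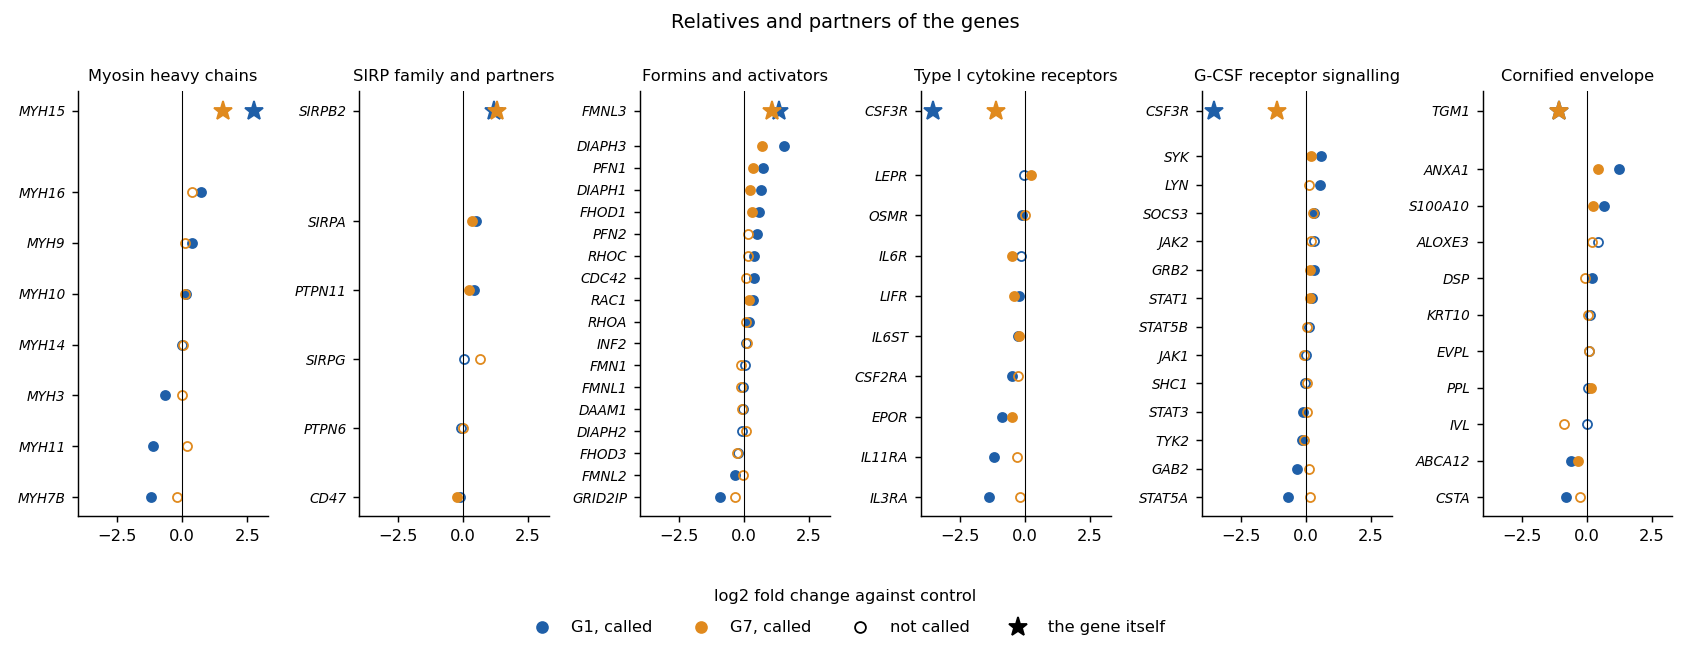
Log2 fold change against control with G1 and G7 (linear axis) of tested relatives and partners, filled where called, with the gene of interest as a star on top of each panel. The stars were chosen for their size. Among the relatives, DIAPH3 shows the largest G1 rise of the formin panel, and 7 of 9 cytokine receptors are filled to the left of 0 with G1.

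Markers of muscle and several leukocyte markers were at or near the floor, while some neuron, myeloid and squamous markers were not. Muscle markers (8 genes) summed to between 0 and 0.481 CPM in every library, and MYOD1 and TTN had 0 counts. Neuron markers (8 genes) summed to 1.67 to 1.92 CPM in control, 0.711 to 1.73 with G1 and 1.80 to 2.42 with G7, with SNAP25 and STMN2 at 0. SYP, at 0.879 CPM in control, and RBFOX3, at 0.701, passed the filter on low counts, and neither was called against control. Of 13 myeloid markers, the leukocyte marker PTPRC had 6 to 11 counts, MPO and CD68 had 0, and SPI1 and TYROBP at most 1. The summed myeloid level was 1313 to 1416 CPM in control, 1170 to 1301 with G1 and 1626 to 1820 with G7, nearly all of it S100A8 and S100A9, which epithelial cells also express. CD14, another myeloid marker, had 36 to 141 counts, with log2 changes of -1.18 with G1, a call, and 0.02 with G7, not called. ITGAM, at 0.866 CPM in control, had -1.12 with G1, a call that ended without G1 replicate 2, and 0.30 with G7, not called. CSF1R, at 2.90 CPM in control, had -0.29 and -0.42, neither called. Squamous markers (8 genes) summed to 46.2 to 53.0 CPM in control, 104 to 113 with G1 and 56.5 to 64.3 with G7, most of it SFN, and the squamous factor TP63 had -0.41 with G1 and -0.49 with G7, neither called. A 0 in this table is itself uncertain, since S100A11, usually abundant in epithelial cells, had at most 1 count.

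The genes beside the 6 were examined because position was no part of the rule. Within 200 kb on either side, 46 other genes were tested. With G1, 11 of them were higher and 18 lower, 63.0% called beside 59.1% of all genes, and with G7, 5 were higher and 3 lower, 17.4% called beside 22.7%. Between the hairpins 37.0% were called beside 44.9%. Taken without direction, these shares are near the background. By direction, 30.4% of all genes were higher and 28.7% lower with G1, and 13.1% and 9.64% with G7. DESeq2 called 11 higher and 13 lower with G1, and 4 higher and 1 lower with G7, where it gave no adjusted p for 11 of the 46. The median log2 change of the neighbours with G1 was -0.10 beside -0.01 for all genes, -0.04 within 100 kb, and -0.19 beside -0.10 with upper quartile scaling. With G7 it was 0.00 beside 0.01. Of the 46 neighbours, 22 lay beside TGM1, so these pooled values lean on 1 region. Of the 22 beside TGM1, edgeR called 4 higher and 11 lower with G1, beside 30.4% and 28.7% of all genes. With G7 it called 0 higher and 2 lower, beside 13.1% and 9.64%. Some G1 calls in this region were unstable. Those of KHNYN, AL136295.5 and ADCY4, all lower, ended under 10 of 18, 6 of 17 and 4 of 17 alternatives. That of PSME1, higher, ended under 3 of 18.

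Some single neighbours changed in the same direction as a gene of the set. Of all genes tested, 30.4% were higher and 28.7% lower with G1, and 13.1% and 9.64% with G7. Between the hairpins, 23.3% were higher with G1. The neighbours named here are a choice among those tested, and shared control was not tested. CIP2A, which encodes an inhibitor of the phosphatase PP2A and lies 20.5 kb from MYH15, rose from 39.2 ± 0.591 CPM to 86.7 ± 0.191 with G1 and 52.8 ± 2.95 with G7 (SD, n = 3). Its log2 changes were 1.14 and 0.43, and it was higher with G1 than with G7 by 0.72 (edgeR adjusted p = 1.86e-09), the order seen for MYH15. DZIP3, 60.4 kb from MYH15 on the same side, fell by 0.47 with G1. NFATC4, a calcium-dependent transcription factor 101 kb from TGM1, changed by -1.33 with G1 and -0.63 with G7 (edgeR adjusted p = 3.19e-06 and 0.00653). REC8, a meiotic cohesin gene 68.9 kb from TGM1, changed by -1.06 and -0.97 from 2.16 CPM, and its G7 call ended with DESeq2 and without control replicate 3. IPO4, an importin gene 60.2 kb from TGM1, moved the other way with a rise of 1.39 with G1. It went from 0.300 CPM in control, near the limit of 3 counts given above, to 0.765 CPM. The call of IPO4 ended without control replicate 3 and without G1 replicate 2. RABGGTA, the closest at 1.11 kb, had -0.01 with G1 and 0.02 with G7, neither called.

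MRPS15, a mitochondrial ribosome gene 1.61 kb from CSF3R, rose by 0.31 with G1 (edgeR adjusted p = 1.36e-05) while CSF3R fell. LSM10, an RNA-processing gene 68.2 kb from CSF3R, rose by 0.59 with G1. Of the 7 tested neighbours of CSF3R, 2 were higher and 3 lower with G1, the latter being SH3D21 at -0.39, OSCP1 at -0.28 and AL591845.1 at -0.41. With G7, 2 were higher, LSM10 at 0.38 and MRPS15 at 0.14, calls that ended under 2 of 18 and 10 of 18 alternatives. The 1 lower with G7 was SH3D21, at -0.32, a call that ended with DESeq2, without control replicate 2 and without G7 replicate 2. The G1 calls of OSCP1 and AL591845.1 ended with DESeq2 and with no filter on low counts, that of OSCP1 also without G1 replicate 2, and that of AL591845.1 without control replicate 2 or G1 replicate 1. Beside NPTX1, the 3 tested genes were RNF213, which changed by -0.27 with G1, ENDOV, which changed by -0.31, and RPTOR, at 0.00 and not called. With G7 edgeR called 0 of them, as did DESeq2 and limma voom, and 0 had an unadjusted p under 0.05, where NPTX1 had a log2 change of 1.08. TMBIM6, which overlaps the start of FMNL3 on the opposite strand without shared exon bases, had 0.08 with G1 and 0.07 with G7, neither called.

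**Figure D4:**
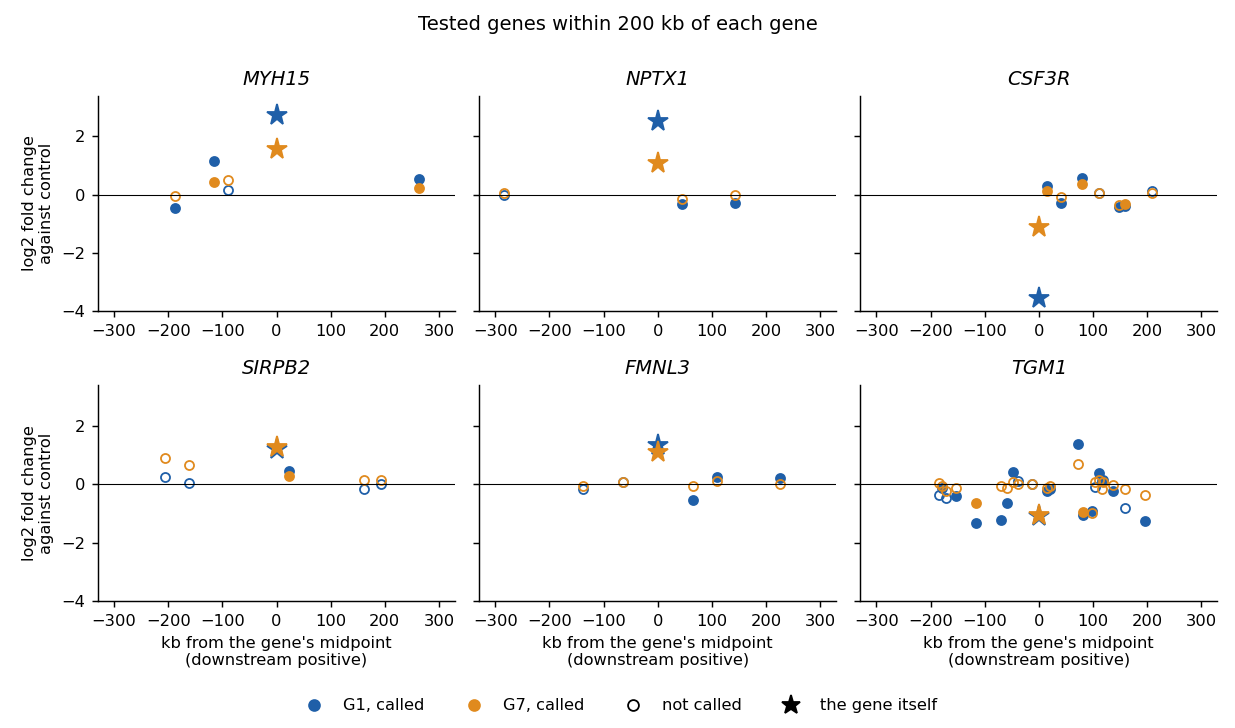
Log2 fold change against control of tested genes within 200 kb of each gene, by the distance in kb between gene midpoints (downstream positive), filled where called, with the gene itself as a star at 0. The stars were chosen for their size. The neighbours lie on both sides of 0, and of all 46, 11 are filled above it and 18 below it with G1.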

How the data were processed

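RNA was measured by polyA-selected, strand-specific RNA sequencing of 9 libraries, per the labels' protocols. The authors deposited 1 table of raw counts per gene, made with TopHat2 2.1.0 and HTSeq 0.6.0 on hg38 (GRCh38), per the submitters' processing notes. The annotation release, the strand setting and the handling of shared reads are details not given in the sources used here. Of 60675 rows, 57055 matched GENCODE 29, and rows without a match held 0.0250% of counts. The 6 genes and all lists were chosen with earlier results of these data known.

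Counts were filtered with filterByExpr, scaled by TMM and fitted over all 9 libraries with edgeR 4.0.16 (R 4.3.3) by the quasi-likelihood test, with Benjamini-Hochberg adjustment over 13264 genes. The 3 contrasts were G1 against control, G7 against control and G1 against G7. CPM was computed here per 1000000 counts of the TMM-scaled library, with merged exon length for values per kilobase. Standard errors and 95% intervals come from the fit. The profiles used log2(CPM + 0.5). On simulated counts with known changes the same code was tested. Alternatives covered DESeq2 1.42.0, limma 3.58.1, other scalings and filters, windows of 100 and 500 kb, and leaving out each library.

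The rule for named genes took the 6, CBX5, up to 3 tested genes per list with the smallest p, the partners CSF3, CD47, CDC42 and NPTX2, called neighbours within 200 kb, the 2 nearest profiles per gene, up to 4 genes ranked beside the 6 in each direction, and markers. Only part of these is printed, and other relatives and neighbours were named after their values were seen.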

Additional observations from a re-analysis of the deposited data

How the results depend on the processing

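Across 18 alternatives, MYH15, NPTX1 and CSF3R were the 3 genes that differed between G1 and G7 each time, at log2 differences of 1.14 to 1.23, 1.40 to 1.56 and -2.84 to -2.20. SIRPB2, FMNL3 and TGM1 did not pass the test under any. The sign of the TGM1 difference turned to 0.0152 with no filter on low counts, to 0.16 without G1 replicate 3 and to 0.06 without G7 replicate 3, and that of SIRPB2 to 0.0757 without G1 replicate 1. Leaving out 1 library at a time, the difference ran from -0.145 to 0.16 for TGM1 and from -0.195 to 0.0757 for SIRPB2. The cause was not tested. Without control replicate 3, MYH15 moved to 2.89 with G1 and 1.69 with G7. Leaving out 1 library gave 7095 to 8260 calls with G1, 2260 to 3321 with G7 and 5068 to 6036 between them, against 7837, 3014 and 5962. Upper quartile scaling turned the split of calls from 4031 higher and 3806 lower to 3066 and 4815 with G1, from 1735 and 1279 to 1398 and 1603 with G7, and from 3092 and 2870 to 2346 and 3751 between G1 and G7, with median shifts of -0.10, -0.02 and -0.07 on the log2 scale. Whether replicate numbers pair the samples was not settled by correlations between libraries of different groups. Same-numbered libraries correlated at -0.0901 to 0.271, and differently numbered ones at -0.245 to 0.236. For G1 with G7, same-numbered libraries correlated at 0.0515, 0.173 and 0.271, and differently numbered ones at -0.245 to 0.12. With the replicate block, 7909, 3117 and 6069 genes were called, and 3 of the 6 genes differed between hairpins. Within 100 kb, 69.2% of neighbours were called with G1 and 19.2% with G7, and within 500 kb 69.9% and 23.3%. Counts of 4 to 196 per library limit all these sizes.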
